A study of Mus musculus with 6 samples.

Results

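The casein gene cluster comprises the mouse milk protein genes Csn1s1, Csn2, Csn1s2a, Csn1s2b and Csn3. The 5 genes were chosen because Csn3 had the largest AC9 minus VECTOR signal difference among the 19505 genes measured, so the values that chose them are given as a description with no test. Each was read by 1 probe set, matched by gene number, because Csn2 and Csn3 are also older names of signalosome subunits. The arrays (Affymetrix Clariom S) measured total RNA of 393P cells (9393P in some labels), which come from a lung adenocarcinoma of a mouse. One group of 3 samples stably overexpressed AC9 and the other group of 3 carried the empty VECTOR. All cells grew in RPMI with fetal bovine serum and were selected with puromycin or G418; the labels do not say which drug served which group, or whether samples came from separate cultures or clones. Such differences therefore cannot be told apart from AC9, and p-values measure only the spread between the samples, which may be technical.

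Caseins are the main proteins of milk, secreted by the alveolar cells of the mammary gland as micelles that carry calcium phosphate. The alpha- and beta-type caseins (Csn1s1, Csn2, Csn1s2a, Csn1s2b) are phosphorylated, calcium-sensitive proteins of the micelle interior, whereas kappa-casein (Csn3) is a glycosylated protein of the micelle surface that keeps the particles in suspension. In the mammary gland the genes are switched on together by prolactin through JAK2 and STAT5, with glucocorticoid receptor, C/EBP and ELF5 acting beside it.

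Of the 5 genes, Csn3 was the one whose signal lay above 90% of the negative controls, on the AC9 arrays and on no VECTOR array. The comparison used the 90th percentile of the 5222 negative control probe sets of each array, here called the bound, which lay at a log2 intensity of 6.0 to 6.1. Csn3 (probe set TC0500000802.mm.2) read 7.67, 7.58 and 7.47 on the AC9 arrays, against 4.61, 4.61 and 4.85 on the VECTOR arrays, all as log2 intensity. All AC9 arrays lay above the bound, by 1.38 to 1.56 on the log2 scale, and all VECTOR arrays under it, so the groups did not overlap. The groups did not overlap for 35.1% of all genes, and for 17.3% with AC9 higher, and nothing is read from it here because Csn3 was chosen on this contrast. The group means were 7.57 ± 0.10 in AC9 and 4.69 ± 0.14 in VECTOR (SD, n = 3 each), a log2 signal difference of 2.89 (SE 0.11 from the limma fit). Since the VECTOR level is no more than background, the size is given as a lower limit: Csn3 was at least 2.92-fold brighter in AC9 than the bound of the VECTOR arrays.

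The signal of Csn3 exceeded 97.2% to 97.7% of the negative controls in AC9, against 67.4% to 71.3% of them in VECTOR. Even so, 120 to 146 negative control probe sets were brighter than Csn3 on the AC9 arrays. With the 99th percentile of the negative controls as the bound, 0 AC9 arrays lay above it instead of 3. The negative controls themselves hardly moved between groups, with a difference of 0.01 in their median and 0.07 in their 90th percentile (AC9 minus VECTOR, log2). Because the RNA came from many cells, a larger share of cells with Csn3 RNA and more Csn3 RNA per cell cannot be told apart.

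**Figure D1:**
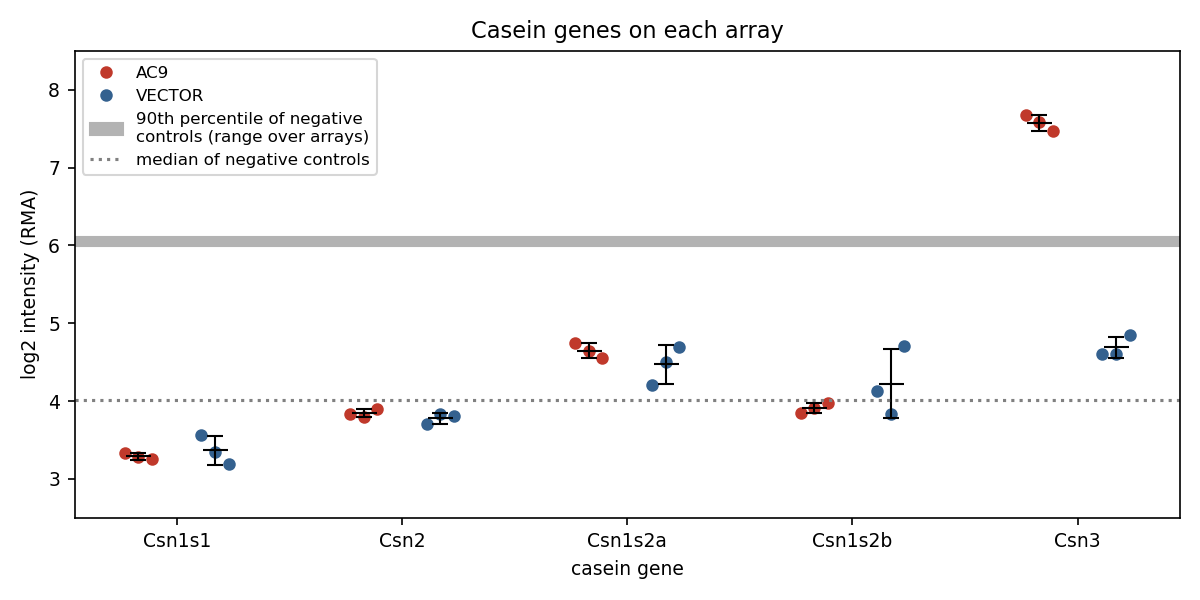
Log2 intensity of the 5 casein genes on every array, AC9 in red left of VECTOR in blue, with the mean and SD of 3 arrays in black. The grey band is the range of the bound over the arrays, and the dotted line is the median of the negative controls. The 3 AC9 values of Csn3 lie above the band, at 7.47 to 7.67, and all other points lie under it.

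The calcium-sensitive caseins stayed at the level of the negative controls on every array. Csn1s1, which encodes alpha-s1-casein, read 3.33, 3.28 and 3.26 in AC9, against 3.56, 3.34 and 3.20 in VECTOR. Csn2, which encodes beta-casein, read 3.84, 3.80 and 3.90 in AC9, against 3.70, 3.84 and 3.80 in VECTOR. In both genes the groups overlapped. Csn1s1 was brighter than 22.7% to 25.0% of the negative controls in AC9 and 18.8% to 34.8% in VECTOR, and Csn2 than 42.8% to 45.8% in AC9 and 40.2% to 45.3% in VECTOR.

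The alpha-s2-like caseins were also under the bound on all 6 arrays. Csn1s2a read 4.75, 4.64 and 4.55 in AC9, against 4.21, 4.50 and 4.70 in VECTOR. Csn1s2b read 3.84, 3.91 and 3.97 in AC9, against 4.13, 3.83 and 4.71 in VECTOR. Both overlapped between groups. The VECTOR spread of Csn1s2b was the widest of the 5 genes (SD 0.45) because of VECTOR replicate 3: its difference was -0.32 with all arrays and -0.07 without that one.

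No size of change is given for these 4 genes, since both groups read as background, but the interval of the signal difference bounds what the arrays could have shown. The 95% interval of AC9 minus VECTOR was -0.33 to 0.17 for Csn1s1, -0.14 to 0.27 for Csn2, -0.12 to 0.47 for Csn1s2a and -0.74 to 0.11 for Csn1s2b, on the log2 scale. A level below the background could differ without showing on the arrays.

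Promoter sequences of Csn1s1, Csn2 and Csn1s2a are shown because casein promoters are known targets of the factors of lactogenic control whose levels are given with that list. The sequences are RefSeq's, build GRCm38.p6, 5′ to 3′ on the strand of the gene, from 250 bases before the start of the gene to 50 bases after it. Csn1s1 lies on the plus strand at chr5:87665958-87666257, Csn2 on the minus strand at chr5:87699376-87699675 and Csn1s2a on the plus strand at chr5:87774200-87774499. Of the 5 casein genes 3 were matched to the sequence table; Csn1s2b and Csn3 are named only. Capitals mark the letters TTCNNNGAA, the core of STAT5 sites.
Csn1s1: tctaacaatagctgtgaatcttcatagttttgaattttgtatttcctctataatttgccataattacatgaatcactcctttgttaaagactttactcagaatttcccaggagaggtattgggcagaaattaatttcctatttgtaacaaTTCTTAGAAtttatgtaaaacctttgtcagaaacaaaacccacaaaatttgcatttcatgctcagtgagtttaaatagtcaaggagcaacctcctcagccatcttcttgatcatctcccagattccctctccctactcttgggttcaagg
Csn2: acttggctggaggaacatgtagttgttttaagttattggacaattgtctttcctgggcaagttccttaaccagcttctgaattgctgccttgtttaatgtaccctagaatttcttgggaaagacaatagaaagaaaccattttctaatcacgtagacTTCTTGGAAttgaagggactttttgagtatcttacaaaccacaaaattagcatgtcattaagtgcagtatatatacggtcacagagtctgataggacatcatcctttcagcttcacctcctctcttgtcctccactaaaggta
Csn1s2a: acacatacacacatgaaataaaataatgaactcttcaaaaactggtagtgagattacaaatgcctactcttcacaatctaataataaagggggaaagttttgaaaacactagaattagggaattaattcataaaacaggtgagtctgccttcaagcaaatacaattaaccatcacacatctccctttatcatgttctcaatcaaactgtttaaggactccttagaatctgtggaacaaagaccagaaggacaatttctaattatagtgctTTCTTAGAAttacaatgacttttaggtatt

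Each of the 3 windows held TTCNNNGAA once, on both strands since the core is its own reverse complement. It started at position -100 in Csn1s1, -93 in Csn2 and 21 in Csn1s2a, counted from the start of the gene, so in Csn1s2a it lay after the start. Of 32851 windows of 300 bases, 8.30% held these letters. The cAMP response element TGACGTCA and its core TGACG, a part of it, were searched on both strands because AC9 is listed as a synonym of Adcy9, which makes cAMP. Neither was in any of the 3 windows; 1.79% of all windows held the full element and 20.8% the core. The C/EBP letters TTNNGNAA, searched on both strands, were found 1 time in Csn1s1, 2 times in Csn2 and 2 times in Csn1s2a, without overlap with the STAT5 letters, and 40.7% of all windows held them. A match of letters is a description and not a binding site.

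None of the measured genes around the caseins passed the test. In the RefSeq gene order, Csn1s1, Csn2, Csn1s2a and Csn1s2b follow one another among the measured genes. Of 7 annotated genes between the outermost caseins, 5 lie between Csn1s2b and Csn3, of which 3 were measured. Together with the 4 nearest measured genes on each side, 11 neighbours were measured, and 0 of them passed the limma threshold of an adjusted p of 0.05 (0 at an unadjusted p under 0.05 as well), against 17.6% of all genes (8.26% higher and 9.29% lower in AC9). The share called depended on brightness: it was 28.2% of the 9913 genes above the bound on all arrays and 3.32% of the 8198 genes under it on all arrays, so 0 of 11 is close to the share of dim genes. Sult1e1, an estrogen sulfotransferase, passed only without AC9 replicate 3 (log2 difference 0.51, adjusted p 0.0183; 0.26 and 0.406 with all arrays). Both are differences between levels under the bound.

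The nearest measured gene before Csn3 is Odam, a protein of tooth enamel formation and a relative of the caseins. It read 6.34, 6.21 and 6.39 in AC9, against 6.21, 5.72 and 6.46 in VECTOR, close to the bound in both groups. Its log2 difference was 0.18 (SE 0.17, adjusted p 0.527), with a 95% interval of -0.20 to 0.56. The nearest after Csn3 is Cabs1, a calcium-binding protein of spermatids. Cabs1 read 3.08, 3.26 and 3.34 in AC9, against 3.28, 3.56 and 3.55 in VECTOR, under the bound throughout (adjusted p 0.204).

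Of the other neighbours, the transcribed pseudogene Gm7337 was above the bound on all 6 arrays, at 6.77 ± 0.18 in AC9 and 6.64 ± 0.15 in VECTOR (SD, n = 3 each; adjusted p 0.523). The salivary protein genes Smr3a and Smr2, with Gm7714, lie beyond Cabs1, and Prr27 lies next to Csn1s2b. On the far side of Csn1s1 lie Ugt2b38, a glucuronosyltransferase gene, and the sulfotransferase genes Sult1b1, Sult1d1 and Sult1e1. In all, 9 of the 11 neighbours were under the bound on every array, with log2 differences of -0.24 to 0.29 over the 11. Gm7337 and Odam were the neighbours with a signal above the bound on any array.

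**Figure D2:**
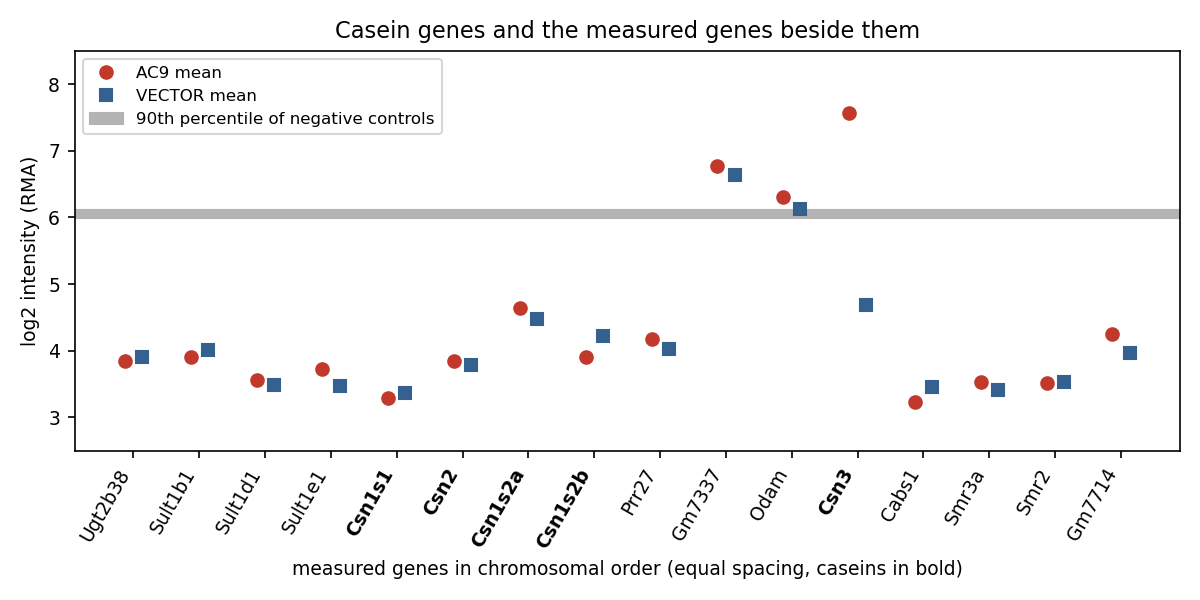
Mean log2 intensity (n = 3 arrays a group) of the casein genes, in bold, and the 11 measured neighbours in chromosomal order with equal spacing; AC9 in red left of VECTOR in blue. Only Csn3 has its group means on different sides of the grey band, the range of the bound over the arrays, with 7.57 in AC9 and 4.69 in VECTOR.

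The pattern of Csn3, under the bound on all VECTOR arrays and above it on all AC9 arrays, was met by 44 of 19505 genes (0.226%). The opposite pattern was met by 117 genes (0.60%). Because Csn3 was chosen on this contrast, nothing is read from that share for Csn3. Of the 8401 genes under the bound on all VECTOR arrays, Csn3 had the largest log2 signal difference, 2.89, which its choice fixes. Aspm, a spindle pole protein, had a signal difference of 2.23 and Cdc25c, a phosphatase of mitotic entry, one of 1.93, and the median over the 8401 genes was 0.03. Kif15, a mitotic kinesin, also showed the pattern, at 7.59 ± 0.17 in AC9 and 5.73 ± 0.17 in VECTOR (SD, n = 3 each). The lower limits ordered these genes otherwise: at least 2.96-fold for Kif15, 2.92-fold for Csn3, 2.83-fold for Aspm and 1.83-fold for Cdc25c. The first place of Csn3 thus holds for the signal difference and not for the lower limit.

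**Figure D3:**
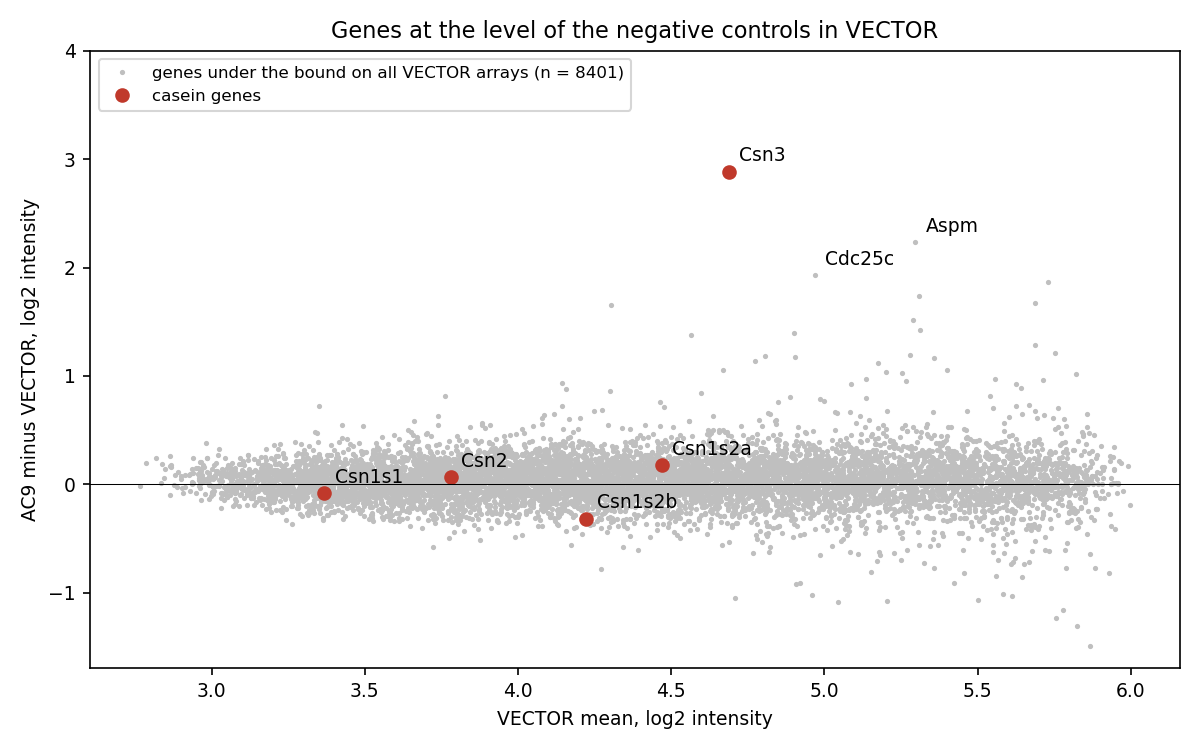
Each point is 1 of the 8401 genes under the bound on all VECTOR arrays; the x axis is its VECTOR mean and the y axis its AC9 minus VECTOR signal difference, both as log2 intensity. Csn3 stands at 2.89, above Aspm at 2.23 and Cdc25c at 1.93, while the other 4 caseins lie within the main cloud between -0.32 and 0.18.

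The likeness of other genes to Csn3 over the 6 arrays was taken as the root mean square distance between profiles after subtracting each gene's VECTOR mean, where Csn3 itself is at 0. The 5 nearest were Kif11, the kinesin that separates spindle poles (distance 0.36 on the log2 scale), Aspm (0.48), the checkpoint kinase Bub1 (0.54), the proliferation antigen Mki67 (0.55) and the proline-rich protein Prr11 (0.55). Kif11 read 8.99, 9.07 and 8.82 in AC9, against 6.50, 6.46 and 6.76 in VECTOR. Since the measure rewards a large AC9 difference, it mostly restates that these genes also differed most: Kif11, Aspm and Bub1 came next below Csn3 when genes were ranked by their signal difference, with 2.38, 2.23 and 2.14. Among the VECTOR arrays, replicate 3 was the highest for Csn3 and for 4 of the 5 genes, all but Aspm. The distance counts the VECTOR arrays too, so the choice of the 5 genes favours a shared order. Nothing is read from that count.

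**Figure D4:**
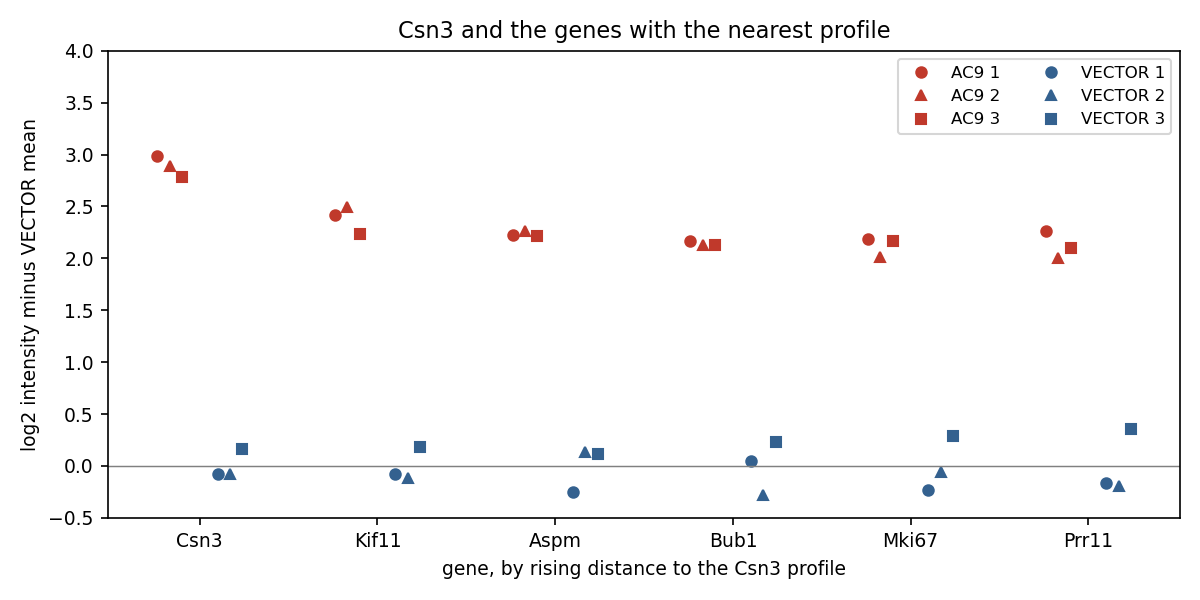
Log2 intensity minus the gene's VECTOR mean for Csn3 and the 5 genes nearest to it, on each array; AC9 in red left of VECTOR in blue, marker shape for the replicate number. The 3 AC9 arrays lie above all VECTOR arrays in each gene, and Csn3 has the largest mean difference, 2.89.

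The genes that are known to control casein transcription were mostly measured well above background and moved in both directions. Of 41 measured, 36 were above the bound on all arrays, 6 rose and 7 fell, which is 31.7% called, against 17.6% of all genes and 28.2% of those above the bound on all arrays; the median log2 change was 0.02. The share of the list is thus near that of genes as bright. Without AC9 replicate 1 the number called was 9, where the count over all genes also fell, to 2174 against 3424.

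The prolactin receptor gene, Prlr, was not among the measured genes, so nothing can be said of it. Among the receptors measured, Ghr, the growth hormone receptor, which signals through JAK2 and STAT5, rose most. It read 8.83, 8.78 and 9.13 in AC9, against 7.10, 7.36 and 7.42 in VECTOR, with no overlap. The log2 change was 1.62 (SE 0.13, adjusted p 6.18e-05), or 3.06-fold. Nr3c1, the glucocorticoid receptor, rose by 0.62 (SE 0.14, adjusted p 0.0123), to 8.30 ± 0.20 in AC9 against 7.68 ± 0.20 in VECTOR (SD, n = 3 each).

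Of the STAT factors, Stat5a and Stat3 fell and Stat5b did not pass. Stat5a, the main carrier of the prolactin signal in the mammary gland, read 7.69, 7.91 and 7.59 in AC9, against 8.11, 8.36 and 8.53 in VECTOR. It changed by -0.60 (SE 0.13, adjusted p 0.0128), and its call was lost without AC9 replicate 3 (-0.53, adjusted p 0.0502). Stat5b had a difference of -0.21 with a 95% interval of -0.49 to 0.07 (adjusted p 0.293). Stat3, which acts in the regression of the gland after weaning, changed by -0.97 (adjusted p 0.000361). Jak2, the kinase upstream of STAT5, had 11.12 ± 0.07 in AC9 and 10.91 ± 0.08 in VECTOR (SD, n = 3 each; adjusted p 0.168). Socs2, a feedback inhibitor of growth hormone and prolactin signalling that STAT5 induces, rose by 0.64 (SE 0.11, adjusted p 0.00418). Cish, Socs1 and Socs3, of the same list, did not pass. Their differences were -0.14, -0.01 and -0.14 (adjusted p 0.522, 0.972 and 0.506).

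Of the transcription factors, Cebpd and Cebpa, members of the C/EBP family, had the lowest differences of the list together with Id2. Cebpd read 8.05, 8.11 and 7.99 in AC9, against 9.68, 9.84 and 9.75 in VECTOR, a log2 change of -1.70 (SE 0.09, adjusted p 1.20e-05). Cebpa changed by -1.40 (SE 0.12, adjusted p 0.000129). Cebpb, of the same family, went the other way and did not pass. Its difference was 0.28 (SE 0.10, adjusted p 0.0758), above the bound on all arrays. Id2, which mouse mammary alveoli need to develop, changed by -1.10 (SE 0.09, adjusted p 6.05e-05). The kinase Akt1 changed by -0.55 (adjusted p 0.00731). Elf5, the ETS factor that defines alveolar cells, was under the bound on all arrays, at 4.71 ± 0.19 in AC9 and 4.68 ± 0.31 in VECTOR (SD, n = 3 each; adjusted p 0.919).

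**Figure D5:**
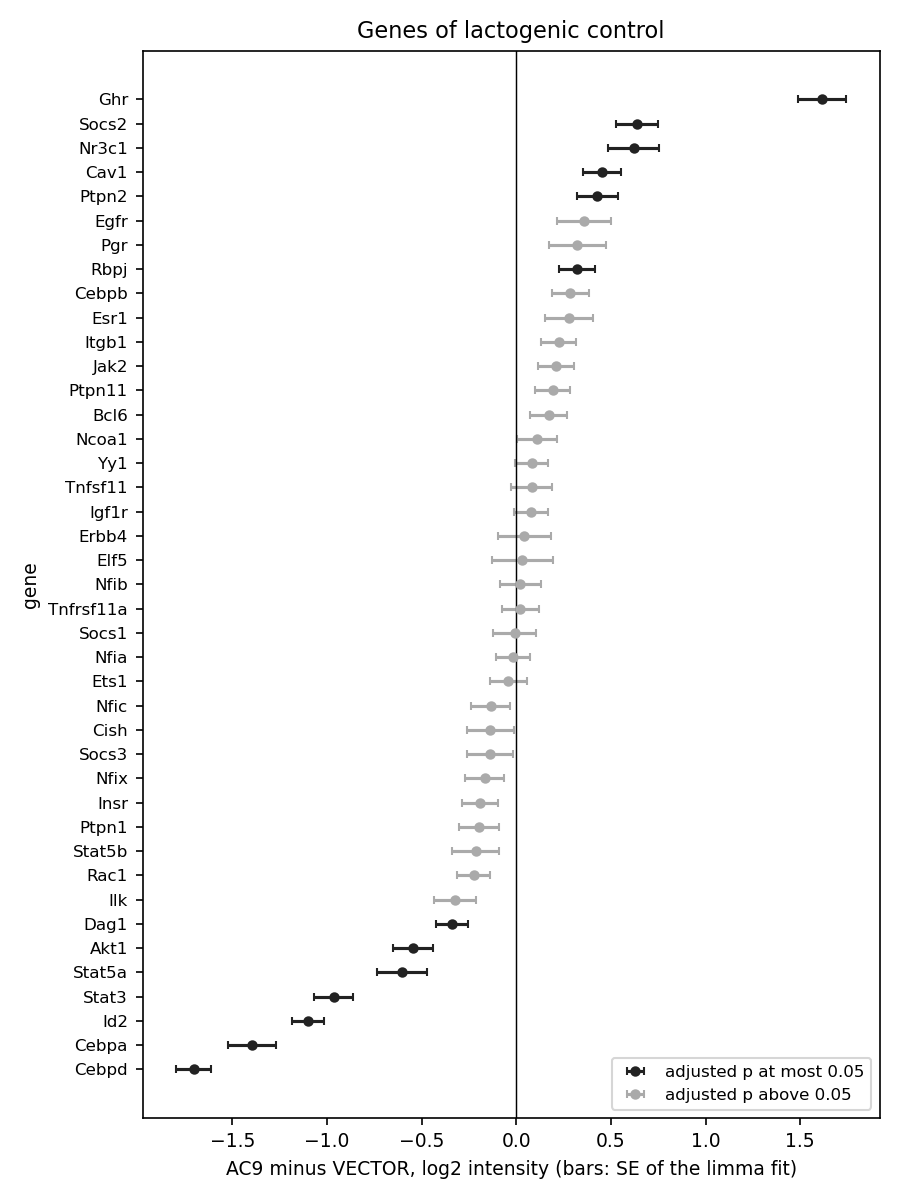
AC9 minus VECTOR log2 difference of the 41 measured genes of lactogenic control, with SE bars from the limma fit; black points passed an adjusted p of 0.05 and grey points did not. Ghr is highest at 1.62 and Cebpd lowest at -1.70.

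Of 23 other milk protein genes measured, Plin2 rose, and Muc1 and Mfge8 fell. These 3 calls are 13.0% of the list, against 17.6% of all genes and 3.32% of those under the bound on all arrays. Of the 23, 14 were under the bound on all arrays, and the median was -0.00380. The whey proteins Lalba (alpha-lactalbumin) and Ltf (lactoferrin) were among those under it, at 4.35 ± 0.03 and 4.08 ± 0.20 in AC9 and 4.17 ± 0.10 and 4.21 ± 0.27 in VECTOR (SD, n = 3 each). Wap, the whey acidic protein, gave a signal above the bound in both groups, at 7.16, 7.03 and 6.79 in AC9 and 7.01, 7.00 and 6.97 in VECTOR. Its log2 difference was -0.000150, with a 95% interval of -0.25 to 0.25. The milk fat globule genes Btn1a1 and Lpl had differences of -0.11 (adjusted p 0.584) and -0.15 (adjusted p 0.485).

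The 3 milk genes called are also used outside the mammary gland. Plin2, a coat protein of lipid droplets, rose by 0.46 (SE 0.09, adjusted p 0.00820). Muc1, a cell surface mucin, changed by -0.46 (adjusted p 0.0156), and its call was lost without AC9 replicate 1 (-0.39, adjusted p 0.0666) or VECTOR replicate 1 (-0.42, 0.0548). Mfge8, a milk fat globule protein, changed by -0.39 (adjusted p 0.0237), with the call lost without AC9 replicate 1 (0.0939) or 2 (0.0697) or VECTOR replicate 1 (0.0642) or 2 (0.0734). Without AC9 replicate 1, 1 of the 23 genes was called.

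Of 30 measured genes of casein phosphorylation, O-glycosylation, calcium loading and folding, 2 rose and 6 fell, with a median of -0.03. The share called was 26.7%, against 17.6% of all genes and 28.2% of those above the bound on all arrays, where 21 of the 30 lay. The number called was 4 without AC9 replicate 1, 5 without AC9 replicate 2 and 5 without VECTOR replicate 3. St3gal1, which adds sialic acid to mucin-type O-glycans such as those of kappa-casein, read 5.92, 5.90 and 5.84 in AC9, against 7.13, 7.53 and 7.40 in VECTOR. It was at least 2.39-fold lower (adjusted p 6.05e-05), a limit because its AC9 values lay under the bound. Galnt3, which starts such glycans, read 7.71, 7.83 and 7.70 in AC9, against 6.68, 6.32 and 6.87 in VECTOR, and rose by 1.13 (SE 0.14, adjusted p 0.000690).

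Orai1, a calcium channel of the plasma membrane, changed by -0.61 (SE 0.09, adjusted p 0.00214). B4galt1, the galactosyltransferase that forms lactose with alpha-lactalbumin, changed by -0.53 (adjusted p 0.0115), and its call was lost without AC9 replicate 1 (adjusted p 0.0517). Fam20c, the Golgi kinase that phosphorylates caseins, read 6.24, 6.08 and 5.92 in AC9, against 5.56, 5.74 and 5.47 in VECTOR. Fam20c passed by limma (adjusted p 0.0179), with the VECTOR arrays under the bound and a lower limit of 1.04-fold. AC9 replicate 3 was under the bound too, and the AC9 mean, 6.08, lay just under the mean bound of the AC9 arrays, 6.09. The size of the Fam20c difference is therefore not resolved from background. Its call was lost without AC9 replicate 1 (0.0730) or 2 (0.0505), or VECTOR replicate 1 (0.0575) or 3 (0.0574).

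The relatives of the caseins, secretory calcium-binding phosphoproteins of teeth, bone and saliva, were nearly all under the bound. Of 15 measured, 13 were under the bound on all arrays and 0 passed by limma, against 17.6% of all genes and 3.32% of those under the bound on all arrays. At an unadjusted p under 0.05 there was 1, against 30.3% of all genes and 11.5% of the dim ones. Sparcl1 had a log2 difference of 0.34 (adjusted p 0.106) and passed without AC9 replicate 3 (0.47, 0.0373), with levels under the bound throughout. Sparc, a matrix protein, was the only one above the bound on all arrays, at 11.07 ± 0.09 in AC9 and 11.24 ± 0.03 in VECTOR (SD, n = 3 each; adjusted p 0.263).

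Markers of other cell types were set beside Csn3, and their part in its difference was not tested. Of 14 mammary luminal markers measured, 0 passed by limma, against 17.6% of all genes and 3.32% of those under the bound on all arrays. At an unadjusted p under 0.05 there were 3, against 30.3% of all genes and 11.5% of the dim ones. On all arrays 7 were under the bound (Elf5, Lalba, Wfdc18, Ltf, Kit, Pgr and Cited1) and 4 were above it. These 4 were Foxa1, Esr1, Wap and Aldh1a3, the last at 7.57 ± 0.16 in AC9 and 7.53 ± 0.02 in VECTOR (SD, n = 3 each). The summed log2 level of the list was 81.0 to 82.5 in AC9 and 79.8 to 81.9 in VECTOR. The 3 with an unadjusted p under 0.05 were Foxa1, Cited1 and Wfdc18. Foxa1, a factor that lung epithelium also uses, had a difference of -0.31 (adjusted p 0.0586) and passed without VECTOR replicate 1 (-0.38, 0.0461). Cited1 had -0.27 (adjusted p 0.157) and Wfdc18 had 0.39 (adjusted p 0.163), both with levels under the bound. The median log2 difference of the list was 0.04. Without VECTOR replicate 1, 2 of the 14 passed.

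Of 10 mammary basal markers, 0 passed by limma, against 17.6% of all genes and 3.32% of those under the bound on all arrays. At an unadjusted p under 0.05 there were 0 of the 10 as well. On all arrays 7 were under the bound (Krt5, Krt17, Acta2, Oxtr, Trp63, Cnn1 and Tagln), with a summed level of 50.6 to 54.3 in AC9 and 51.3 to 52.8 in VECTOR. Krt14, a basal keratin, and Mylk were above the bound on all arrays, Krt14 at 6.52 ± 0.09 in AC9 and 6.50 ± 0.05 in VECTOR (SD, n = 3 each). Acta2 had a difference of 0.11 (adjusted p 0.610). Mylk had -0.25 (adjusted p 0.367) and passed without AC9 replicate 2 (-0.45, 0.0374). Of 12 markers of salivary and lacrimal glands, 1 passed (8.33%), and 2 passed without AC9 replicate 3. The share called was 17.6% of all genes and 3.32% of those under the bound on all arrays, where 10 of the 12 lay. Their list had a summed level of 55.1 to 56.7 in AC9 and 55.5 to 56.4 in VECTOR. The one that passed with all arrays was Aqp5, a water channel of lung alveoli as well, which changed by -1.45 (adjusted p 2.23e-05). Car6 had the largest positive difference of that list, 0.77 (adjusted p 0.0734), with AC9 replicate 1 above the bound and all other arrays under it.

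The labelled cell type was checked against 18 markers of lung and general epithelium. Cdh1, Krt8 and Krt18 were bright, at 12.61 ± 0.04, 11.82 ± 0.07 and 12.62 ± 0.04 in AC9 and 12.84 ± 0.07, 11.87 ± 0.14 and 12.37 ± 0.07 in VECTOR (SD, n = 3 each). The lung lineage markers Nkx2-1, Sftpc, Sftpb, Scgb1a1 and Lamp3 were under the bound on all arrays. Napsa was above the bound on all 3 VECTOR arrays and on 0 AC9 arrays, at 6.23 ± 0.04 and 5.92 ± 0.14 (SD, n = 3 each, adjusted p 0.0630). Hopx was above the bound on 2 arrays of each group, Sftpd on 1 AC9 array and Ager on 1 VECTOR array. Abca3 and Aqp5, both used by lung alveolar cells, were above it on all arrays, Abca3 at 9.11 ± 0.17 in AC9 and 9.20 ± 0.09 in VECTOR (SD, n = 3 each). Epcam, a general epithelial marker, and Krt19, Krt7 and Cldn4 were also above it on all arrays. Of the 18, 3 rose and 2 fell (27.8%, against 17.6% of all genes), with a summed level of 141.5 to 141.8 in AC9 and 142.3 to 143.5 in VECTOR. Besides Aqp5, Krt19 changed by -0.47 (adjusted p 0.00873), Krt7 rose by 0.48 (0.0119) and Cldn4 rose by 0.50 (0.0189). The call of Cldn4 was lost without AC9 replicate 1 (0.0712), AC9 replicate 3 (0.0695) or VECTOR replicate 1 (0.0618), and 3 markers passed without VECTOR replicate 1.

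As a check of the labels, Adcy9, of which AC9 is a listed synonym, read 6.78, 6.60 and 6.82 in AC9, against 6.12, 6.09 and 6.15 in VECTOR (log2 change 0.61, SE 0.10, adjusted p 0.00264). The rise was 1.53-fold, at rank 519 of all genes by signal difference, and the VECTOR values lay just above the bound. The median gene lay at 6.42 to 6.46 on each array, and 53.6% to 55.3% of genes exceeded the bound. No array stood apart: correlations across genes, which are not independent replicates, were 0.994 to 0.996 within a group and 0.985 to 0.988 between groups.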

How the data were processed

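Total RNA of 6 samples, 3 with AC9 and 3 with the empty vector, was hybridised to Affymetrix Clariom S arrays, per the labels' protocols. The deposited values are log2 intensities, 1 for each probe set; the submitters' processing notes name RMA, a method of background correction, quantile normalization and probe summary. Software version and genome build were not given.

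Of 28846 probe sets, 19572 had 1 gene symbol in GEO's platform annotation, and all were matched by gene number to RefSeq's table (GRCm38.p6), used for names, gene order and promoter sequences. For 55 genes with several probe sets, the brightest was taken, leaving 19505 genes. The groups were compared in R 4.3.3 by limma 3.58.1 (lmFit, eBayes, two-sided, Benjamini-Hochberg over all genes, threshold 0.05), tested on simulated data first. The number of arrays limits the precision. The bound was the 90th percentile of 5222 negative control probe sets on the same array. A gene under it on every array of 1 group has its fold as a lower limit against the bound.

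The members and lists were chosen with earlier results of these data known. The lists share genes, so their counts are not independent. Wap, Lalba, Ltf and Wfdc18, among others, are both other milk proteins and mammary luminal markers. Elf5, Pgr and Esr1 are both luminal markers and genes of lactogenic control. Odam, Cabs1, Smr3a and Smr2 are both neighbours and related phosphoproteins. The naming rule took the caseins, Adcy9, their measured neighbours (4 a side), the 5 genes nearest to Csn3, the 3 next in rank, and up to 4 called members per list (otherwise the 2 of smallest p). A further 22 genes (Stat5a, Stat5b, Stat3, Jak2, Nr3c1, Socs2, Elf5, Akt1, Fam20c, Wap, Lalba, Ltf, Btn1a1, Lpl, Sparc, Cdc25c, Kif15, Cdh1, Krt8, Krt18, Nkx2-1, Sftpc) were named after their values were seen. Further markers were cited from their lists, after their values were seen, by their place against the bound. Cebpb, Cish, Socs1, Socs3, Wfdc18 and Car6 were likewise cited after their values were seen, for their differences.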

Additional observations from a re-analysis of the deposited data

Results flagged for a closer look

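Among 2634 probe sets with no gene name here, which the comparisons did not use, 1 showed the same pattern as Csn3, under the bound on all VECTOR arrays and above it on all AC9 arrays. It read 6.16, 6.15 and 6.54 in AC9, against 5.05, 5.23 and 5.49 in VECTOR, a log2 difference of 1.03. The opposite pattern was shown by 5 such probe sets.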

How the results depend on the processing

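The alternatives were an intensity-trended robust prior, repeated quantile normalization, centring on the genes or on the negative controls, leaving out dim genes (the lowest 40% by mean), averaging probe sets, array weights, a replicate block, and leaving out each array. The difference of Csn3 was 2.84 to 2.97 without single arrays; those of Csn1s1, Csn2, Csn1s2a and Csn1s2b were -0.16 to 0.02, 0.03 to 0.09, 0.05 to 0.29 and -0.51 to -0.07. With the 99th percentile of the negative controls as the bound (8.78 to 9.02), Csn3 lay above it on 0 arrays instead of 3, and with the 95th on 3. The genes called numbered 2174 to 3025 without single arrays (968 to 1491 higher, 1206 to 1534 lower), and 1670 at an adjusted p of 0.01 (729 higher, 941 lower), where the stricter threshold itself lowers the count. With the genes' median as the centre, 1861 were higher and 1650 lower, against 1612 and 1812.

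Without single arrays, the list members called were 9 to 11 for lactogenic control, 4 to 7 for casein modification, 1 to 3 for other milk proteins, 3 to 5 for lung epithelial markers, 0 to 2 for mammary luminal markers, 1 to 2 for salivary markers, and 0 to 1 each for mammary basal markers, related phosphoproteins and neighbours. Mammary luminal markers had 1 call instead of 0 with the robust prior, repeated quantile normalization, dim genes left out or centring on the negative controls. Lung markers had 8 with dim genes left out, where fewer genes were tested, and salivary markers 2 with the robust prior. The cause was otherwise not tested. Of the 29 called genes named beside the caseins, 23 kept the call in all 14 refits and 0 reversed.

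The replicate block gave 3062 genes called, against 3424, and 2 salivary markers, against 1, and moved no other count by over 1.5 times. The replicate numbers share only a number: deviations of same-numbered arrays correlated at 0.01, 0.08 and 0.01 across genes. Differences of genes under the bound are limited by signal over background.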
